A study of Homo sapiens with 39 samples.

Results

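Amino acid transporters of the plasma membrane were followed in HCC1428-LTED, a breast cancer cell line that expresses the estrogen receptor and was kept without estrogen for a long time. The set held 10 genes, out of 46706 gene symbols in the table. They were chosen for their function around SLC7A5, with earlier results of these data known. They are SLC7A5, SLC3A2, SLC1A5, SLC7A11, SLC7A1, SLC7A2, SLC38A1, SLC38A2, SLC1A4 and SLC7A8. All 10 were found by symbol, and 9 passed the expression filter of at least 1 TPM (transcripts per 1000000) on average over the libraries, which 14404 symbols passed. The exception was SLC7A11.

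The cells received 1 of 6 estrogen receptor ligands at 300 or 30 nM, or DMSO, for 24 hours, in medium with charcoal-stripped serum that all 13 groups shared. AZD-SAR and GDC-SAR are hybrids, labelled as the AZD9496 and GDC-0810 scaffolds carrying the side chain of SAR439859. AZD9496, GDC-0810 and SAR439859 are their parents, fulvestrant is labelled as a standard-of-care degrader, and DMSO is labelled as untreated. Each group had 3 libraries, 39 in all. All libraries come from 1 cell line, and nothing in the labels says that replicates were separate cultures, so p-values may measure technical spread only. The series text speaks of duplicates, whereas the labels give 3 libraries per group.

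The libraries listed 15818 to 26756 symbols above 0, and depth is unknown because every library sums to 1000000 TPM. SAR439859 30 nM replicate 3 had the fewest symbols and the lowest median correlation with other libraries (0.897, next lowest 0.932), and was kept. No pair of libraries held identical values. The luminal marker genes ESR1, GATA3, KRT8 and EPCAM averaged 397, 3669, 1237 and 74.7 TPM, against 15.1 to 32.2 TPM per library for the sum of all markers of other cell types. The estrogen-induced genes PGR, GREB1 and TFF1 were called lower in all 12 comparisons of a ligand with DMSO. DMSO replicates 2 and 3 share index sequences with AZD9496 300 nM replicate 3 and AZD-SAR 300 nM replicate 3 and were therefore sequenced apart from them. No pool is labelled, so pool and treatment cannot be told apart in comparisons with DMSO. Differences between ligands do not use the DMSO means, but the pools of the ligand libraries are not labelled either. In the shared fit, the DMSO libraries also enter the estimate of spread behind those p-values.

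Large neutral amino acids such as leucine enter cells through LAT1, a pair made of the light chain SLC7A5 and the heavy chain SLC3A2 (CD98), which carries the light chain to the membrane. LAT1 exchanges them for intracellular glutamine, which the sodium-coupled carriers SLC1A5, SLC38A1 and SLC38A2 bring in, and the leucine that enters is sensed by mTORC1. SLC7A8 (LAT2) is another light chain of SLC3A2 with a broader choice of neutral amino acids, SLC7A11 (xCT) pairs with SLC3A2 to take up cystine, SLC7A1 and SLC7A2 carry arginine and lysine, and SLC1A4 exchanges alanine, serine and cysteine. The SLC7A5 gene is known as a target of MYC and ATF4.

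Promoter sequences are shown for 3 members that moved in opposite directions, SLC7A5 and SLC7A1 (lower) and SLC38A2 (higher). Each is the 250 bases before the RefSeq start in GRCh38.p14, on the minus strand, 5′ to 3′. Capitals mark a CACGTG E-box, the motif bound by MYC and related factors, in SLC7A5 (130 bases before the start) and a match to the antioxidant response core TGACNNNGC in SLC7A1. SLC38A2 has neither in the bases shown. The windows are chr16:87869508-87869757 for SLC7A5, chr13:29595689-29595938 for SLC7A1 and chr12:46372774-46373023 for SLC38A2.
SLC7A5: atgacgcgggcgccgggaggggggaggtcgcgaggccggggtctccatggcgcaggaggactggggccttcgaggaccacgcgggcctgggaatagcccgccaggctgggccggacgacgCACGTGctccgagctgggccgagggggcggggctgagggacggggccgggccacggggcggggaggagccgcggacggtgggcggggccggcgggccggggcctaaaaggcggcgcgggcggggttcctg
SLC7A1: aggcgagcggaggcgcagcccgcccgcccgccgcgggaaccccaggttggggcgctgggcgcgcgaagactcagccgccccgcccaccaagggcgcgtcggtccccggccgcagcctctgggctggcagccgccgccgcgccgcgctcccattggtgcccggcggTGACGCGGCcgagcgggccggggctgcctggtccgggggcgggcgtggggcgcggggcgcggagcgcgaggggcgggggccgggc
SLC38A2: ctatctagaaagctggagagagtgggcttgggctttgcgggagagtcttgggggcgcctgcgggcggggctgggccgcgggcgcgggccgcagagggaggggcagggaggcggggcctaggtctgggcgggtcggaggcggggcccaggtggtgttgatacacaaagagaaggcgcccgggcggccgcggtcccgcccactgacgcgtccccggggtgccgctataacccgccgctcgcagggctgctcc

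Of 35116 promoter windows of 300 bases (250 before to 50 after the start), searched on both strands, 7.26% held CACGTG, 13.3% held TGACNNNGC, 0.991% held the C/EBP-ATF element TGATGNAAT and 0.057% held the full estrogen response element. The members had 17 such windows for 8 genes (several have more than 1 start). Of these, 3 held CACGTG, 4 held TGACNNNGC and 0 held either of the other motifs. Windows with CACGTG belonged to SLC7A5 and SLC1A5, which had lower calls, and to SLC7A8, which had higher calls. Windows with TGACNNNGC belonged to SLC3A2, SLC7A1, SLC1A5 and SLC7A5. In SLC7A5 this match begins 2 bases before the start and runs past it, so it is not marked above. A match describes letters only and is not evidence of binding.

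Against DMSO, members fell with the hybrids, SAR439859, fulvestrant and GDC-0810, and other members rose with all ligands. A call here is an adjusted p below 0.05 in limma on log2(TPM + 1), adjusted over all 14404 symbols. At 300 nM, AZD-SAR had 5 of 9 members lower and 2 higher, where 12.8% of all tested symbols were lower and 12.7% higher. GDC-SAR had 6 lower and 3 higher (10.5% and 9.76% of all), and SAR439859 had 5 lower and 2 higher (12.8% and 11.2%). Fulvestrant also had 5 lower and 2 higher (8.12% and 11.1%), as did GDC-0810 (9.04% and 6.99%). AZD9496 stood apart with 0 lower by limma and 1 higher (2.21% and 3.71%), and 2 were lower at an unadjusted p below 0.05. With median-of-ratios scaling, SLC7A1, SLC7A2 and SLC1A4 became lower calls with AZD9496 at both doses, 3 in place of 0. This scaling also lowered the median AZD9496 difference over all symbols, by 0.098 at 300 nM and 0.184 at 30 nM. The share of all symbols called lower with scaling is not given here, so whether the 3 calls exceed it cannot be told.

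At 30 nM the member counts were alike. AZD-SAR had 5 lower and 3 higher (8.66% and 11.9% of all), GDC-SAR 5 and 3 (11.1% and 11.4%), SAR439859 5 and 2 (10.2% and 15.3%) and fulvestrant 5 and 3 (7.82% and 11.3%). GDC-0810 had 3 lower and 1 higher (8.83% and 7.95%), and AZD9496 had 0 lower by limma, 2 at an unadjusted p below 0.05, and 2 higher (2.05% and 9.21%). The median log2 difference over the 9 members at 300 nM was -0.54 (AZD-SAR), -0.71 (GDC-SAR), -0.03 (AZD9496), -0.40 (GDC-0810), -0.60 (SAR439859) and -0.46 (fulvestrant). The same median over all tested symbols lay between 0 and 0.10.

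Each member was called in 1 direction only. Over the 12 comparisons, which share the 3 DMSO libraries, SLC3A2, SLC7A2 and SLC1A4 were called lower 10 times each, SLC7A5 and SLC7A1 9 times each and SLC1A5 once. SLC38A1 was called higher 11 times, SLC7A8 8 times and SLC38A2 7 times. In bulk RNA, fewer cells of a type and less RNA per cell cannot be told apart.

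**Figure D1:**
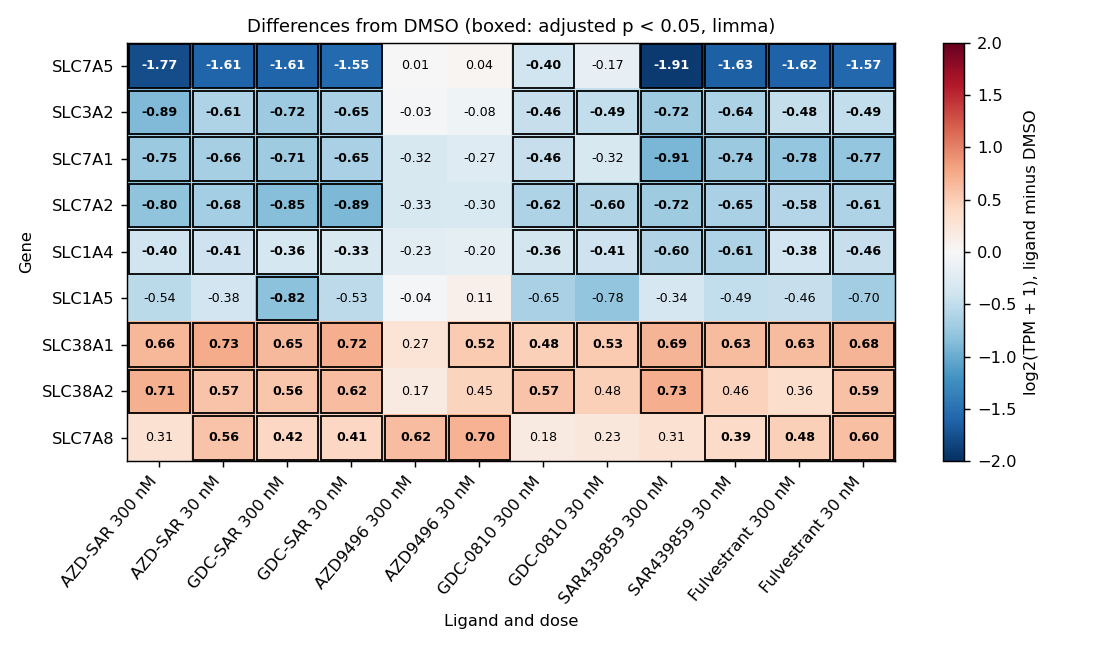
Log2 difference from DMSO in log2(TPM + 1) for the 9 tested transporters (one axis) with each ligand and dose (other axis), as colour. Boxed cells have an adjusted p below 0.05 in limma, and SLC7A5 has the darkest cells, down to -1.91 with 300 nM SAR439859, next to near-blank cells with AZD9496.

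SLC7A5 (GRCh38 chr16:87830023-87869488, minus strand) had the steepest falls of the set with AZD-SAR, GDC-SAR, SAR439859 and fulvestrant, but not with GDC-0810. At 300 nM it measured 18.6, 29.6 and 31.6 TPM with AZD-SAR and 28.9, 28.4 and 29.8 TPM with GDC-SAR. The parent scaffolds gave 93.4, 102 and 79.7 TPM with AZD9496 and 57.4, 71.7 and 77.9 TPM with GDC-0810. SAR439859 gave 21.6, 24.2 and 24.4 TPM, fulvestrant 28.5, 28.1 and 30.2 TPM, and DMSO 96.8, 91.0 and 84.5 TPM. The libraries formed a low set of 4 ligands, all at or below 31.6 TPM, and a high set of AZD9496, GDC-0810 and DMSO, all at or above 57.4 TPM. AZD9496 overlapped DMSO, and all 3 GDC-0810 libraries were below the lowest DMSO library.

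At 30 nM SLC7A5 measured 29, 30.9 and 27.4 TPM with AZD-SAR, 29.4, 32.7 and 28.9 TPM with GDC-SAR, 33.5, 25.3 and 27.4 TPM with SAR439859 and 28.9, 31.5 and 29.5 TPM with fulvestrant. AZD9496 gave 99.8, 94 and 86.7 TPM and GDC-0810 70.3, 86.9 and 85.8 TPM. The same division held at the lower dose, with the low set at most 33.5 TPM and the high set at least 70.3 TPM.

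**Figure D2:**
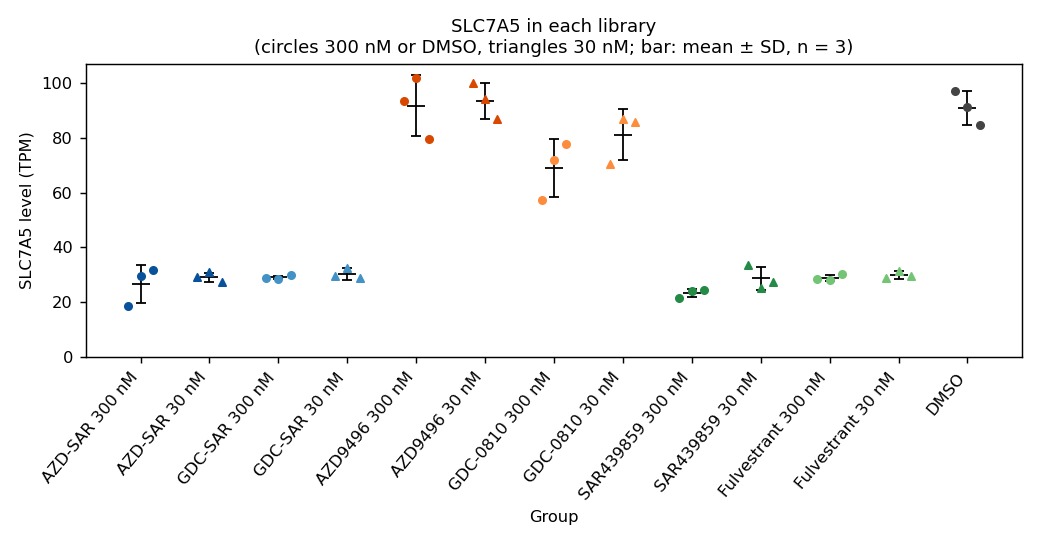
SLC7A5 in TPM (vertical axis) in each of the 39 libraries, by ligand (circles 300 nM or DMSO, triangles 30 nM; bars are mean ± SD, n = 3). AZD-SAR, GDC-SAR, SAR439859 and fulvestrant libraries lie at 18.6 to 33.5 TPM, and AZD9496, GDC-0810 and DMSO libraries at 57.4 to 102 TPM.

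Against DMSO at 300 nM, SLC7A5 fell by 1.77 on the log2 scale with AZD-SAR (adjusted p = 1.24e-10, limma), by 1.61 with GDC-SAR (1.08e-09), by 1.91 with SAR439859 (1.60e-11) and by 1.62 with fulvestrant (6.74e-10), each with a standard error of 0.14. At 30 nM the falls were 1.61, 1.55, 1.63 and 1.57 in the same order of ligands (adjusted p at most 2.18e-09). With AZD9496 the log2 difference was 0.01 at 300 nM (95% interval -0.28 to 0.29, adjusted p = 0.991) and 0.04 at 30 nM (-0.25 to 0.33, 0.892), and with median-of-ratios scaling both turned negative, to -0.11 and -0.17, without a call. GDC-0810 lay between, with a fall of 0.40 at 300 nM (interval -0.69 to -0.11, adjusted p = 0.049) and a difference of -0.17 at 30 nM (-0.45 to 0.12, 0.451). This GDC-0810 call was lost without its own replicate 1 (adjusted p = 0.271) or 2 (0.0734), without DMSO replicate 1 (0.146), 2 (0.115) or 3 (0.0676), with a pseudocount of 0.1 (0.0514), with no filter on low values (0.109) and with only the 6 libraries compared (0.107).

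Ordered by mean SLC7A5 level, both doses gave the same sequence, which was SAR439859, AZD-SAR, fulvestrant, GDC-SAR, GDC-0810, DMSO and AZD9496, low to high. The means ± SD (n = 3) at 300 nM were 23.4 ± 1.57, 26.6 ± 7.0, 28.9 ± 1.11, 29 ± 0.695, 69.0 ± 10.5, 90.8 ± 6.18 and 91.6 ± 11.1 TPM. At 30 nM the 6 ligands averaged 28.8 ± 4.23, 29.1 ± 1.74, 29.9 ± 1.38, 30.3 ± 2.03, 81.0 ± 9.29 and 93.5 ± 6.56 TPM, with AZD9496 last. The only neighbours that differed by the test were GDC-SAR and GDC-0810 at both doses and GDC-0810 and DMSO at 300 nM. An F test over the 6 ligands called SLC7A5 at both doses (adjusted p = 1.37e-11 each), where it ranked 4 of 14404 symbols at 300 nM and 7 at 30 nM.

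The hybrids allow the side chain to be exchanged on a fixed scaffold, and 12 pairs of structurally related ligands were compared, 6 at each dose. On the AZD9496 scaffold, SLC7A5 with AZD-SAR was 0.29 times its AZD9496 level at 300 nM and 0.311 times at 30 nM. The log2 differences were -1.77 (interval -2.06 to -1.49, adjusted p = 6.91e-10, limma) and -1.65 (-1.94 to -1.36, 4.23e-09). On the GDC-0810 scaffold, SLC7A5 with GDC-SAR was 0.421 times its GDC-0810 level at 300 nM and 0.375 times at 30 nM, with log2 differences of -1.21 (-1.50 to -0.92, 3.62e-06) and -1.38 (-1.67 to -1.10, 1.84e-07). By p-value, SLC7A5 ranked 4 of 14404 in the AZD9496 scaffold pair and 6 in the GDC-0810 scaffold pair at each dose. These 4 calls were kept when p-values were adjusted over all 30 ligand pairs together (at most 7.25e-09 on the AZD9496 scaffold). Fitting only the 6 libraries compared ended both calls at 300 nM (adjusted p = 0.0547 and 0.0992).

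**Figure D3:**
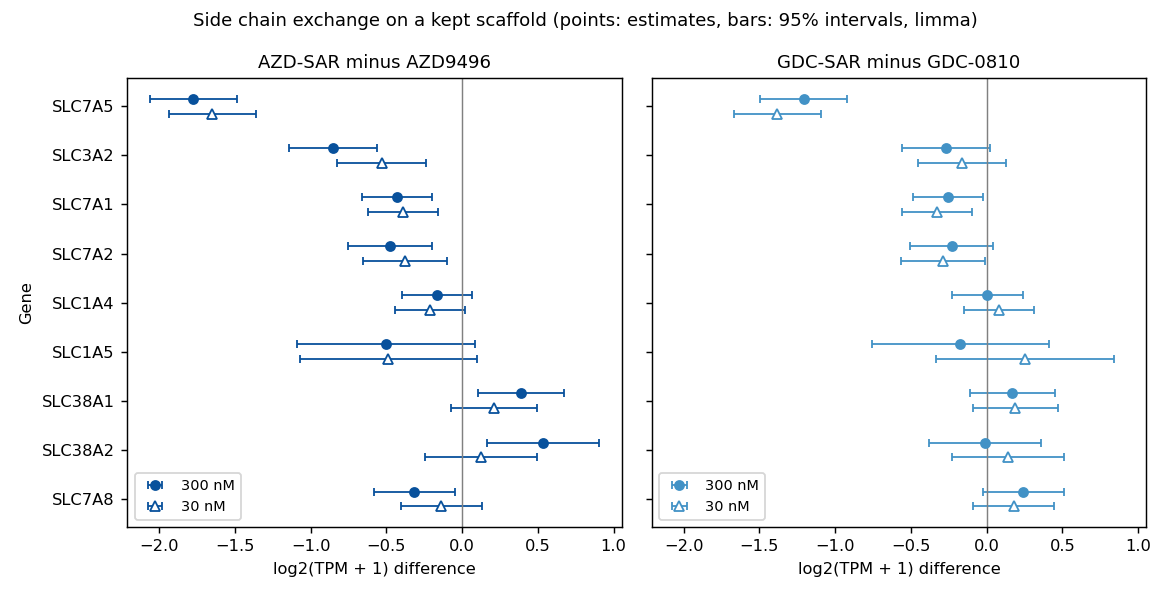
Log2 difference in log2(TPM + 1) (horizontal axis) of each hybrid minus the parent with the same scaffold, by transporter, at 300 and 30 nM; bars are 95% intervals. SLC7A5 lies at -1.77 and -1.65 on the AZD9496 scaffold and at -1.21 and -1.38 on the GDC-0810 scaffold, and most other intervals lie nearer 0.

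SLC7A5 was called in no pair of ligands that share the SAR439859 side chain. With GDC-SAR and SAR439859 at 300 nM, however, its libraries did not overlap. The unadjusted p of that pair was below 0.05 (limma), as for 4.57% of all symbols. AZD-SAR minus GDC-SAR was -0.16 at 300 nM (interval -0.44 to 0.13, adjusted p = 1) and -0.06 at 30 nM (-0.34 to 0.23, 1). AZD-SAR minus SAR439859 was 0.15 (-0.14 to 0.43, 0.946) and 0.02 (-0.26 to 0.31, 0.965), and GDC-SAR minus SAR439859 was 0.30 (0.02 to 0.59, 1) and 0.08 (-0.20 to 0.37, 0.812). These intervals still allow differences of up to 0.59 on the log2 scale. Between the parent scaffolds, AZD9496 minus GDC-0810 was 0.41 at 300 nM (0.12 to 0.70, 0.0979) and 0.21 at 30 nM (-0.08 to 0.50, 0.441), and the 300 nM value became a call without GDC-0810 300 nM replicate 3 (0.50, 0.0473).

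Whether the exchange of side chain moved SLC7A5 more on one scaffold was tested as an interaction. The change on the AZD9496 scaffold exceeded that on the GDC-0810 scaffold by -0.57 at 300 nM (interval -0.97 to -0.16, adjusted p = 0.216) and by -0.27 at 30 nM (0.891), neither of them a call. Without AZD-SAR 300 nM replicate 3 the first value was -0.70 with an adjusted p of 0.0439. Over the members, 0 of 18 interaction tests were called by limma and 4 had an unadjusted p below 0.05, all at 300 nM, where 15.3% of all symbols had one. Besides SLC7A5 these were SLC3A2 (-0.59, adjusted p = 0.204), SLC38A2 (0.55, 0.311) and SLC7A8 (-0.56, 0.197). Among all symbols 0.00694% were called at 300 nM and 0% at 30 nM.

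No dose difference of SLC7A5 passed the test. The 300 nM minus 30 nM difference was -0.28 with SAR439859 (interval -0.57 to 0.01), -0.23 with GDC-0810 (-0.52 to 0.05), -0.16 with AZD-SAR, -0.06 with GDC-SAR, -0.05 with fulvestrant and -0.03 with AZD9496. Adjusted p ranged from 0.429 to 1. Over the 9 members and 6 ligands, 0 of 54 dose differences were called by limma, where 0% of all symbols were called, and 0 had an unadjusted p below 0.05 (1.77% to 11.9% of all symbols).

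MYC, a known activator of SLC7A5 transcription, was lower with every ligand. Its log2 difference from DMSO at 300 nM was -1.72 (AZD-SAR), -1.48 (GDC-SAR), -1.17 (AZD9496), -1.51 (GDC-0810), -1.86 (SAR439859) and -1.60 (fulvestrant). With 300 nM AZD9496, where SLC7A5 overlapped DMSO, MYC averaged 28.9 ± 3.27 TPM, against 66.0 ± 2.47 TPM with DMSO (adjusted p = 1.53e-06). At 300 nM, MYC was lower with AZD-SAR than with AZD9496 by 0.55 (adjusted p = 0.0121), and GDC-SAR minus GDC-0810 was 0.03 (0.987) where SLC7A5 differed by -1.21. ATF4, the transcription factor of the amino acid response, was called in no comparison with DMSO and lay between -0.17 and 0.03 at 300 nM. The part of either gene in the SLC7A5 levels was not tested.

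SLC3A2 (chr11:62856102-62888875, plus strand), the heavy chain, fell with the same 5 ligands at 300 nM, less than SLC7A5 with 4 of them and by a similar amount with GDC-0810. It measured 33.4, 38.9 and 44.6 TPM with 300 nM AZD-SAR, 40.7, 39.7 and 50.6 TPM with GDC-SAR, 73.4, 69.6 and 69.3 TPM with AZD9496 and 43.7, 50.7 and 64.9 TPM with GDC-0810. SAR439859 gave 40.7, 39.8 and 51.0 TPM, fulvestrant 51.6, 46.1 and 58.0 TPM, and DMSO 75.7, 69.2 and 72.4 TPM. Only AZD9496 overlapped DMSO. The SLC3A2 log2 differences were -0.89 with AZD-SAR (adjusted p = 3.00e-05), -0.72 with GDC-SAR (0.000452), -0.03 with AZD9496 (0.945), -0.46 with GDC-0810 (0.0278), -0.72 with SAR439859 (0.000379) and -0.48 with fulvestrant (0.0177). At 30 nM they were -0.61, -0.65, -0.08, -0.49, -0.64 and -0.49, all called except AZD9496 (0.783).

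The SLC3A2 calls with fulvestrant and GDC-0810, at both doses, were each lost without DMSO replicate 1 (adjusted p 0.0561 to 0.0832) or a library of the ligand. Those libraries were fulvestrant 300 nM replicate 2 (0.102), fulvestrant 30 nM replicate 1 (0.114), GDC-0810 300 nM replicates 1 and 2 (0.186 and 0.0795) and GDC-0810 30 nM replicate 1 (0.164), and GDC-0810 calls were also lost without DMSO replicate 2 (0.055) or 3 (0.0518 to 0.071). Exchanging the side chain on the AZD9496 scaffold lowered SLC3A2 at 300 nM, with AZD-SAR minus AZD9496 at -0.85 (interval -1.15 to -0.56, adjusted p = 0.000284, and 0.102 with only the 6 libraries compared). At 30 nM this difference was -0.53 (-0.82 to -0.24, 0.0496), a call lost without any of the 6 libraries (0.108 to 0.2) or with scaling (0.133). On the GDC-0810 scaffold the SLC3A2 differences were -0.27 (-0.56 to 0.03, 0.585) and -0.16 (-0.46 to 0.13, 0.859).

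Member calls between structurally related ligands were few, 8 of 108, and 4 of them were of SLC7A5. AZD-SAR minus AZD9496 had 4 members lower at 300 nM, where 8.57% of all symbols were called in either direction, and 2 lower at 30 nM (1.68%). GDC-SAR minus GDC-0810 had 1 member lower at each dose, SLC7A5 (1.25% and 1.28% of all). The remaining 8 pair comparisons called 0 members by limma. Of all symbols, these pairs called 1.12% at 300 nM and 0.0208% at 30 nM for AZD9496 minus GDC-0810, 0% and 0.257% for GDC-SAR minus SAR439859, 0% and 0.0555% for AZD-SAR minus SAR439859, and 0% for AZD-SAR minus GDC-SAR. At an unadjusted p below 0.05, AZD9496 minus GDC-0810 had 6 of 9 members at 300 nM and 4 at 30 nM, against 20.8% and 18.9% of all symbols. GDC-SAR minus SAR439859 had 2 and 1 (4.57% and 16.2% of all), and AZD-SAR had 0 against SAR439859 (6.12% and 11.5%) and 0 against GDC-SAR (3.6% and 2.67%). The F test over 6 ligands called 3 members at 300 nM (4.91% of all), which were SLC7A5, SLC3A2 (adjusted p = 0.00215) and SLC7A1 (0.00561), and 2 at 30 nM (5.11%), SLC7A5 and SLC7A1 (0.0058).

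SLC7A1 (CAT1, chr13:29509410-29595688, minus strand), the widely expressed arginine and lysine carrier, was low in level and fell with the same 5 ligands at 300 nM. At 300 nM it measured 6.95, 7.90 and 8.22 TPM with AZD-SAR, 7.55, 8.12 and 7.96 TPM with GDC-SAR, 10.8, 11.2 and 9.98 TPM with AZD9496 and 8.99, 9.61 and 10.2 TPM with GDC-0810. SAR439859 gave 7.84, 7.19 and 5.38 TPM, fulvestrant 7.49, 7.07 and 7.98 TPM, and DMSO 13.7, 13.8 and 13.2 TPM. All 18 ligand libraries at 300 nM, AZD9496 included, lay below the lowest DMSO library. The share of all symbols separated from DMSO in this way is not given here, for this or any other member. The SLC7A1 log2 differences were -0.75 with AZD-SAR (adjusted p = 1.18e-05), -0.71 with GDC-SAR (2.89e-05), -0.46 with GDC-0810 (0.00576), -0.91 with SAR439859 (4.10e-07) and -0.78 with fulvestrant (7.54e-06). With AZD9496 they were -0.32 at 300 nM (0.0947) and -0.27 at 30 nM (0.131), which became calls with median-of-ratios scaling (0.00339 and 0.00134).

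At 30 nM SLC7A1 was -0.66 with AZD-SAR, -0.65 with GDC-SAR, -0.74 with SAR439859 and -0.77 with fulvestrant, all called, and -0.32 with GDC-0810 (adjusted p = 0.051). No SLC7A1 call against DMSO was lost by leaving out 1 library. AZD-SAR minus AZD9496 was -0.43 at 300 nM (interval -0.66 to -0.20, adjusted p = 0.019), a call lost without AZD9496 300 nM replicate 2 (0.0993) or AZD-SAR 300 nM replicate 1 (0.131), and -0.39 at 30 nM (0.077). GDC-SAR minus GDC-0810 was -0.25 (0.447) and -0.33 (0.223). Its promoter window, shown above, has the TGACNNNGC match 85 bases before the start.

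SLC7A2 (chromosome 8), the cationic carrier with a narrower tissue range than SLC7A1, was called lower at 300 nM with the same ligands. The F test over the 6 ligands did not call SLC7A2 (adjusted p = 0.0934 at 300 nM and 0.0909 at 30 nM). It called SLC7A1 at both doses (0.00561 and 0.0058). Over the group means, SLC7A2 followed SLC3A2 (Pearson r = 0.924) more closely than it followed SLC7A1 (0.818). The 300 nM libraries held 18, 25.5 and 24.6 TPM of SLC7A2 with AZD-SAR and 21.4, 20.4 and 23.5 TPM with GDC-SAR. AZD9496 gave 32.1, 31.5 and 31.2 TPM and GDC-0810 24.8, 24.5 and 27.8 TPM. SAR439859 gave 21.7, 21.8 and 28.7 TPM, fulvestrant 28.1, 22.6 and 28.7 TPM, and DMSO 37.5, 42.1 and 40.2 TPM. Again every 300 nM library lay below every DMSO library, with AZD9496 nearest. The SLC7A2 log2 differences were -0.80 with AZD-SAR (adjusted p = 5.49e-05), -0.85 with GDC-SAR (3.28e-05), -0.62 with GDC-0810 (0.0023), -0.72 with SAR439859 (0.00021) and -0.58 with fulvestrant (0.00246). At 30 nM these were -0.68, -0.89, -0.60, -0.65 and -0.61, all called.

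With AZD9496, the SLC7A2 difference from DMSO was -0.33 (adjusted p = 0.171) for 300 nM and -0.30 (0.158) for 30 nM, and both became calls with scaling (0.0238 and 0.00706). AZD-SAR minus AZD9496 was -0.48 at 300 nM (interval -0.75 to -0.20, adjusted p = 0.0278), and that SLC7A2 call was lost without AZD9496 300 nM replicates 1, 2 or 3 (0.0573, 0.0983 and 0.0655) or AZD-SAR 300 nM replicate 1 (0.243). GDC-SAR minus GDC-0810 was -0.23 at 300 nM (0.65) and -0.29 at 30 nM (0.506).

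SLC1A4 (ASCT1, chr2:64988477-65023865, plus strand), an exchanger of small neutral amino acids, showed small falls. At 300 nM it measured 26.4, 30.1 and 24.5 TPM with AZD-SAR, 30.0, 27.8 and 25.3 TPM with GDC-SAR, 30.7, 31.3 and 29.1 TPM with AZD9496 and 26.9, 28.4 and 27.2 TPM with GDC-0810. SAR439859 gave 26.9, 23.4 and 19.9 TPM, fulvestrant 28.9, 25.8 and 26.9 TPM, and DMSO 40.2, 34.0 and 33.2 TPM. No ligand library reached the lowest DMSO library, and DMSO replicate 1 was the highest of the 3. The SLC1A4 log2 difference was largest with SAR439859, at -0.60 for 300 nM (adjusted p = 0.000215) and -0.61 for the lower dose, and was -0.38 (0.0166) with fulvestrant at 300 nM. AZD-SAR gave -0.40 (0.0101), GDC-SAR -0.36 (0.0237) and GDC-0810 -0.36 (0.0275). Without DMSO replicate 1, 7 of its 10 calls were lost (adjusted p 0.0699 to 0.18), all but both SAR439859 doses and 30 nM fulvestrant, and 6 were lost with only the libraries compared (0.0557 to 0.0977). With AZD9496 it was -0.23 (0.276) and -0.20 (0.288), which became calls with scaling (0.0409 and 0.0106) and, at 30 nM, with protein-coding symbols only (0.0188).

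SLC1A5 (ASCT2, chr19:46774883-46788594, minus strand), the main glutamine exchanger of many tumour cells, varied widely between libraries, and 1 of its 12 differences from DMSO was called. Libraries treated at 300 nM held 76.1, 53.8 and 46.5 TPM with AZD-SAR, 47.6, 39.9 and 55.5 TPM with GDC-SAR, 85.0, 90.4 and 71.5 TPM with AZD9496 and 33.3, 72.5 and 62.9 TPM with GDC-0810. SAR439859 gave 65.6, 52.4 and 84.5 TPM, fulvestrant 74.6, 46.1 and 66.5 TPM, and DMSO 76.1, 99.3 and 79.3 TPM. SAR439859 and AZD9496 overlapped DMSO, and the libraries of the other 4 ligands lay below it, the highest AZD-SAR library only just. The SLC1A5 fall with 300 nM GDC-SAR was 0.82 on the log2 scale (adjusted p = 0.0409), lost without GDC-SAR replicate 1 (0.0902) or 2 (0.154) or any DMSO library (0.0588 to 0.154). The other 300 nM differences were -0.54 with AZD-SAR (0.167), -0.04 with AZD9496 (0.968), -0.65 with GDC-0810 (0.12), -0.34 with SAR439859 (0.416) and -0.46 with fulvestrant (0.287). At 30 nM SLC1A5 differed by -0.38 with AZD-SAR (adjusted p = 0.378), -0.53 with GDC-SAR (0.194), 0.11 with AZD9496 (0.862), -0.78 with GDC-0810 (0.0579), -0.49 with SAR439859 (0.216) and -0.70 with fulvestrant (0.0878). The 30 nM GDC-0810 difference became a call with scaling (0.0486), protein-coding symbols only (0.0361) or the filter of 5 TPM (0.0444), and that with fulvestrant with scaling (0.0468).

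**Figure D4:**
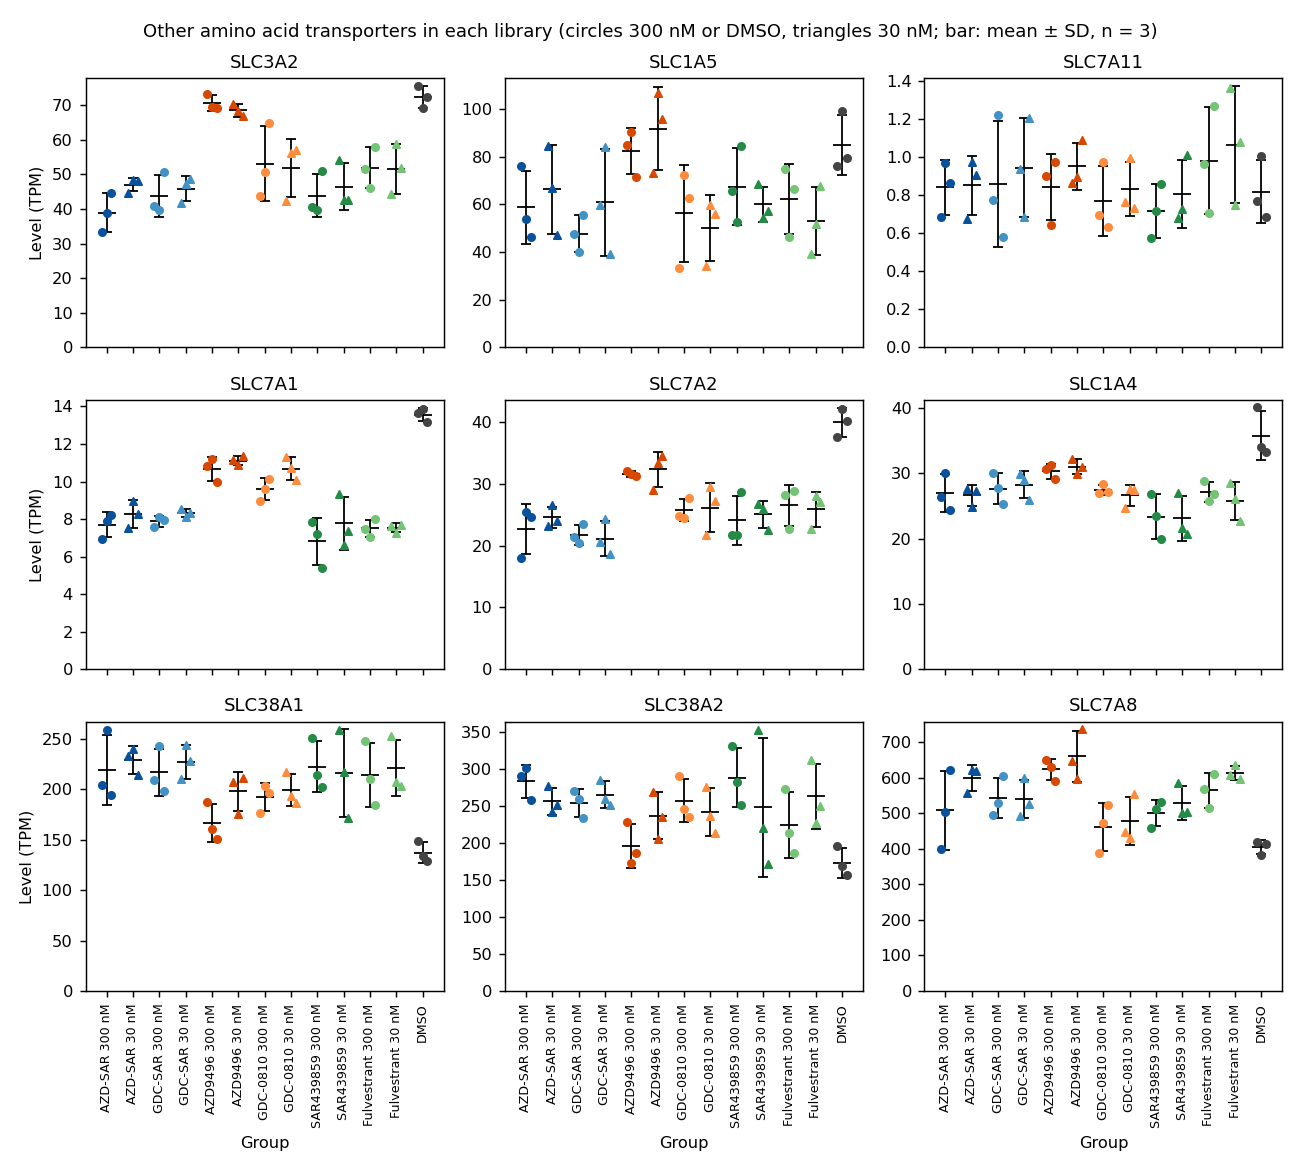
TPM per library (vertical axes, one panel per gene) of the other transporters by ligand (circles 300 nM or DMSO, triangles 30 nM; bars are mean ± SD, n = 3). SLC7A1 with DMSO (13.2 to 13.8 TPM) lies above every 300 nM ligand library, and SLC38A1 with DMSO (129 to 149 TPM) lies below every one.

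Of the sodium-coupled glutamine carriers, SLC38A1 and SLC38A2 went the other way, unlike SLC1A5. SLC38A1 (SNAT1, chr12:46183063-46270017, minus strand) measured 204, 259 and 195 TPM with 300 nM AZD-SAR, 209, 243 and 198 TPM with GDC-SAR, 188, 161 and 151 TPM with AZD9496 and 177, 204 and 197 TPM with GDC-0810. SAR439859 gave 251, 215 and 202 TPM, fulvestrant 248, 210 and 185 TPM, and DMSO 149, 134 and 129 TPM. Every 300 nM library exceeded every DMSO library, with AZD9496 replicate 3 nearest. The SLC38A1 log2 differences were 0.66 with AZD-SAR (adjusted p = 0.000665), 0.65 with GDC-SAR (0.00099), 0.27 with AZD9496 (0.284), 0.48 with GDC-0810 (0.0168), 0.69 with SAR439859 (0.000425) and 0.63 with fulvestrant (0.00137).

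At 30 nM SLC38A1 was 0.73, 0.72, 0.52, 0.53, 0.63 and 0.68 in that order of ligands, all called. The AZD9496 call (0.52, adjusted p = 0.0129) was lost with scaling (0.31, 0.0959) and without its replicates 1 or 3 (0.0588 and 0.0686) or DMSO replicates 2 or 3 (0.0541 and 0.0625). The GDC-0810 calls were lost at 30 nM without its replicate 1 (0.0597) and at 300 nM without its replicate 2 (0.0642) or DMSO replicates 2 or 3 (0.0597 and 0.0718). AZD-SAR minus AZD9496 at 300 nM was 0.39 for SLC38A1 (adjusted p = 0.0718), and became a call with scaling (0.00963).

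SLC38A2 (SNAT2, chr12:46358189-46372867, minus strand), the carrier that cells induce when amino acids run short, rose less evenly. SLC38A2 measured, at 300 nM, 291, 302 and 258 TPM with AZD-SAR, 271, 261 and 234 TPM with GDC-SAR, 229, 173 and 187 TPM with AZD9496 and 291, 246 and 236 TPM with GDC-0810. SAR439859 gave 331, 283 and 252 TPM, fulvestrant 273, 213 and 187 TPM, and DMSO 196, 169 and 156 TPM. AZD9496 and fulvestrant overlapped DMSO, and the other 4 ligands did not. The SLC38A2 log2 differences were 0.71 with AZD-SAR (adjusted p = 0.00422), 0.56 with GDC-SAR (0.028), 0.17 with AZD9496 (0.669), 0.57 with GDC-0810 (0.0305), 0.73 with SAR439859 (0.0034) and 0.36 with fulvestrant (0.171).

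At 30 nM SLC38A2 was called with AZD-SAR (0.57, adjusted p = 0.0252), GDC-SAR (0.62, 0.0139) and fulvestrant (0.59, 0.0198). It was not called with AZD9496 (0.45, 0.112), GDC-0810 (0.48, 0.0671) or SAR439859 (0.46, 0.0628), whose libraries spread from 172 to 354 TPM and which became a call without its replicate 3 (0.00564). Of the 7 SLC38A2 calls, all but those with 300 nM AZD-SAR and 300 nM SAR439859 were lost without DMSO replicate 3 (0.0661 to 0.119), and some without other single libraries (0.0509 to 0.145), and 4 were lost with no filter (0.0516 to 0.0793). Its promoter window, shown above, held none of the 4 motifs.

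SLC7A8 (LAT2, chr14:23125295-23183674, minus strand), the other light chain, was the most abundant member and rose with AZD9496. At 300 nM it measured 400, 504 and 621 TPM with AZD-SAR, 495, 529 and 604 TPM with GDC-SAR, 649, 629 and 591 TPM with AZD9496 and 388, 471 and 524 TPM with GDC-0810. SAR439859 gave 460, 513 and 530 TPM, fulvestrant 568, 514 and 611 TPM, and DMSO 419, 382 and 413 TPM. AZD-SAR and GDC-0810 overlapped DMSO, and the other 4 ligands lay above it. SLC7A8 rose by 0.62 on the log2 scale with AZD9496 (adjusted p = 0.00304), 0.48 with fulvestrant (0.00962) and 0.42 with GDC-SAR (0.0218), and its differences were 0.31 with AZD-SAR (0.0828), 0.18 with GDC-0810 (0.38) and 0.31 with SAR439859 (0.0883).

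At 30 nM SLC7A8 rose by 0.56 with AZD-SAR, 0.41 with GDC-SAR (adjusted p = 0.0228), 0.70 with AZD9496 (0.000634), 0.39 with SAR439859 (0.0292) and 0.60 with fulvestrant, and GDC-0810 gave 0.23 (0.236). The GDC-SAR calls were lost at 30 nM without its replicate 2 (0.113) or DMSO replicate 2 (0.0886), and at 300 nM without its replicates 2 or 3 (0.0501 and 0.0998) or DMSO replicate 2 (0.0897). That with SAR439859 was lost without its replicate 1 (0.116), DMSO replicates 2 or 3 (0.107 and 0.0579) or with scaling (0.0608). In the main fit no pair of structurally related ligands was called for SLC7A8. By p-value (limma), it ranked 460 of 14404 in AZD9496 minus GDC-0810 at 300 nM and 211 at 30 nM. A pair became a call with the filter of 5 TPM (adjusted p = 0.0468), and 2 did without a single ligand library (0.0145 and 0.0257). Leaving out a ligand library also gave a call in an F test (0.0497) and in an interaction (0.0298).

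The balance between both light chains was read as the ratio of SLC7A8 to SLC7A5 TPM within each library, a measure chosen after the values had been seen and given as a description. At 300 nM it averaged 19.4 ± 2.25 with AZD-SAR, 18.7 ± 1.58 with GDC-SAR, 6.85 ± 0.626 with AZD9496, 6.68 ± 0.0986 with GDC-0810, 21.4 ± 0.287 with SAR439859, 19.5 ± 1.06 with fulvestrant and 4.47 ± 0.365 with DMSO (SD, n = 3). At 30 nM it was 20.6 ± 1.80, 17.8 ± 0.901, 7.11 ± 1.22, 5.93 ± 0.844, 18.5 ± 1.16 and 20.5 ± 0.482 with the 6 ligands in that order. AZD9496 and GDC-0810 thus had closely similar ratios at 300 nM, where AZD9496 averaged 91.6 TPM of SLC7A5 and 623 TPM of SLC7A8, and GDC-0810 69 and 461 TPM, differences that were not called. The ratio of SLC7A5 to its heavy chain SLC3A2 averaged 0.675 with AZD-SAR, 0.672 with GDC-SAR, 1.29 with AZD9496, 1.31 with GDC-0810, 0.538 with SAR439859, 0.560 with fulvestrant and 1.25 with DMSO at 300 nM.

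**Figure D5:**
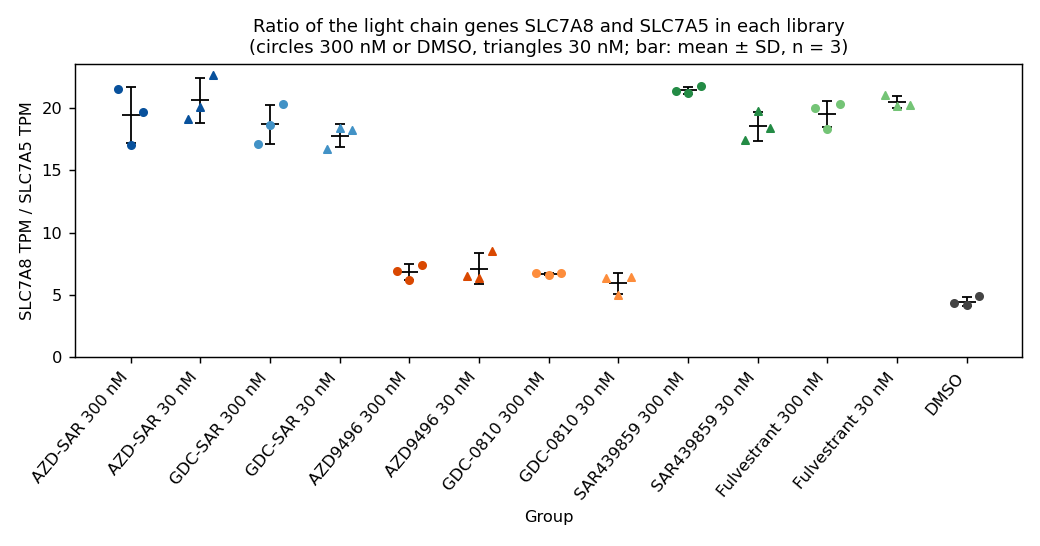
Ratio of SLC7A8 to SLC7A5 TPM (vertical axis) in each library by ligand (circles 300 nM or DMSO, triangles 30 nM; bars are mean ± SD, n = 3). The 4 ligands with low SLC7A5 average 17.8 to 21.4, AZD9496 and GDC-0810 average 5.93 to 7.11, and DMSO averages 4.47.

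SLC7A11 (chr4:138164097-138242349, minus strand), the cystine carrier, was near the lower limit of measurement. It ranged from 0.575 to 1.36 TPM over the 39 libraries with a mean of 0.867 TPM, and DMSO libraries held 0.767, 1.01 and 0.684 TPM. Without the expression filter SLC7A11 was called in no comparison (adjusted p at least 0.877).

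Members were also compared by the shape of their profile over the 13 group means, as a description only, since these points share libraries, the DMSO group and unknown depth. SLC7A5 followed SLC7A1 most closely (Pearson r = 0.94), then SLC3A2 (0.858) and SLC7A2 (0.773), and ran against SLC38A1 (-0.78), while it had little relation to SLC7A8 (-0.13). SLC38A1 and SLC38A2 gave 0.883. Among 9627 other symbols that averaged 5 TPM or more, the closest to SLC7A5 were CELSR2 (0.989), DCDC2 (0.985) and STC1 (0.985). The closest to SLC3A2 were KIAA1161 (0.978), SQLE and PTMA, and the closest to SLC7A1 were the linker histone gene HIST1H1E (0.991), the chromatin assembly gene CHAF1B (0.988) and HIST1H2AL (0.985).

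Other genes of amino acid transport and sensing gave the members a setting. Over the 12 comparisons with DMSO, 8.69% of all tests were called lower and 10.2% higher, and 31.6% had an unadjusted p below 0.05. The members had 49 lower and 26 higher calls in 108 tests (45.4% and 24.1%). Members and lists were chosen with earlier results of these data known, so these shares cannot show that the set is unusual. Of 23 further plasma membrane amino acid transporters 9 passed the filter, and they had 0 lower and 2 higher calls by limma in 108 tests (0% and 1.85%), with 14.8% at an unadjusted p below 0.05. Of 29 genes of amino acid sensing upstream of mTORC1, 23 were tested and had 3 lower and 26 higher calls in 276 tests (1.09% and 9.42%), the higher share near that of all symbols. With 300 nM fulvestrant the leucine sensor family genes SESN1 and SESN3 rose by 1.03 (adjusted p = 0.002) and 0.91 (0.000814).

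Of 22 genes of the ATF4 amino acid response, 18 were tested and had 40 lower and 15 higher calls in 216 tests (18.5% and 6.94%, against 8.69% and 10.2% of all). With 300 nM fulvestrant, DDIT4, an inhibitor of mTORC1 signalling, rose by 1.16 (adjusted p = 1.19e-07) and the mitochondrial folate enzyme gene MTHFD2 fell by 0.77 (0.000767). With 300 nM AZD9496 DDIT4 also rose, by 0.79 (0.000268), and MTHFD2 gave -0.41 (0.142). All 13 cystine and glutathione genes were tested, with 28 lower and 4 higher calls in 156 tests (17.9% and 2.56%). Of 21 enzymes of glutamine, branched-chain amino acids and arginine, 18 were tested with 14 lower and 21 higher calls in 216 tests (6.48% and 9.72%), near or below the shares of all symbols. The glutamate dehydrogenase gene GLUD1 rose by 0.80 with 300 nM fulvestrant (0.000484). The SLC7A5 pseudogenes SLC7A5P1 and SLC7A5P2, whose sequence could take reads from SLC7A5, averaged 1.13 and 2.77 TPM and were called in no comparison with DMSO by limma, with 3 at an unadjusted p below 0.05.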

How the data were processed

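RNA was measured in 39 libraries of HCC1428-LTED cells, stranded NuGEN libraries from Qiagen total RNA treated with DNase, per the labels' protocols. Reads were aligned with STAR to GRCh38, per the submitters' processing notes. Tool versions, the counter and the gene annotation used upstream: not given in the sources used here. Deposited by the authors was 1 table of TPM values for 46706 symbols, used unchanged.

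Symbols that averaged 1 TPM or more (14404) were fitted as log2(TPM + 1) with 1 mean per group in limma 3.58.1 (R 4.3.3), with 26 residual degrees of freedom and an intensity trend. Log2 differences are on that scale and understate changes of low genes, whereas levels given as times another level are ratios of mean TPM. P-values were adjusted within each comparison over all symbols (Benjamini-Hochberg), and a call is an adjusted p below 0.05. The 12 comparisons with DMSO, 30 ligand pairs (12 of them structurally related), 6 dose differences, an F test per dose and an interaction per dose were fitted, and the code was tested on simulated data. All 10 members were read in every comparison, with the 3 symbols most like each member over the 13 group means and the called genes with the largest changes in the other lists. The members and lists were chosen with earlier results of these data known. Positions follow GENCODE release 29, and promoters RefSeq. Replicate numbers follow sample order and pair nothing. The alternatives were a pseudocount of 0.1, no filter (39392 symbols), a mean of at least 5 TPM (9628), median-of-ratios scaling, adjustment over all comparisons of a family, only the libraries compared, leaving out each library, and, added after seeing the data, protein-coding symbols only (11484). Some genes of these lists are not reported here.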

Additional observations from a re-analysis of the deposited data

How the results depend on the processing

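No result of the 9 transporters reversed direction as a call under any setting tried. The SLC7A5 fall with 300 nM GDC-0810 was not called with a pseudocount of 0.1 (-0.41, adjusted p = 0.0514), no filter (-0.40, 0.109) or only the libraries compared (-0.40, 0.107), and ranged from -0.49 to -0.28 leaving out 1 library. With only the libraries compared, the SLC7A5 differences of the hybrids from their parents at 300 nM kept -1.77 (0.0547) and -1.21 (0.0992) without a call. The SLC7A5 interaction at 300 nM ranged from -0.70 to -0.34 leaving out 1 library. Of 49 lower and 26 higher calls against DMSO, 36 to 50 and 17 to 28 were made leaving out 1 library (17 without DMSO replicate 2). The 8 calls between structurally related ligands numbered 5 when adjusted over the family, 2 with only the libraries compared and 5 to 13 leaving out 1 library (5 without AZD9496 300 nM replicate 2, 13 without AZD-SAR 300 nM replicate 3). The F test called 5 members at 300 nM with scaling or protein-coding symbols, and 1 at each dose with only the libraries compared. Interaction calls numbered 0 to 2 leaving out 1 library. With no filter, calls against DMSO were also lost for SLC38A2 (4, adjusted p 0.0516 to 0.0793), SLC7A8 (3, 0.0520 to 0.0709), SLC3A2 (1, 0.0622), SLC1A5 (1, 0.102) and SLC1A4 (1, 0.0611). With only the libraries compared they were lost for SLC1A4 (6, 0.0557 to 0.0977), SLC7A1 (2, 0.0519 and 0.0608), SLC3A2 (1, 0.108), SLC38A1 (1, 0.0796) and SLC7A8 (1, 0.0933). Causes of these changes were not tested, also where only the libraries compared were fitted. Scaling moved the median of all symbols by 0.18 with 30 nM AZD9496 against DMSO. No paired analysis was possible because the labels carry no replicate numbers. Depth is unknown, so counting error behind low members such as SLC7A11 cannot be given.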
